A study of Mus musculus with 31 samples.

Results

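The p53 targets and apoptosis genes described here are 9 mouse genes, Pmaip1, Trp53, Mdm2, Cdkn1a, Bax, Bbc3, Ccng1, Bcl2 and Mcl1, followed through the fetal gonad. They were picked by name, with earlier results of these data known. A gene counts as measured where the array annotation ties a probe set to that symbol alone, and where several did, the one brightest on average across the 31 arrays stood for it. By this rule 7 of the 9 genes were measured, among 18194 genes in all, and Trp53 and Bax were not analysed here.

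The study profiled whole ovaries and testes of mouse embryos on Affymetrix 3′ expression arrays, at 12, 14 and 16 dpc (days post coitum). The embryos were wild type or homozygous for Wv (Wv/Wv), a point mutation that weakens the receptor kinase Kit. Migration and survival of primordial germ cells depend on Kit, as do blood cell precursors, mast cells and melanocytes. Wild-type ovaries gave 2, 3 and 3 arrays at 12, 14 and 16 dpc, Wv/Wv ovaries 2, 3 and 3, wild-type testes 1, 3 and 3, and Wv/Wv testes 3, 2 and 3. Every cell of a Wv/Wv embryo carries the mutation, and the wild-type embryos received no treatment that the labels name. Arrays of 1 group are labelled biological replicates, and the labels do not tell separate embryos from pools. Every p-value is therefore relative to the scatter among these arrays, some of which may be technical.

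The transcription factor p53 is held at a low level by the ubiquitin ligase Mdm2, which is itself a p53 target, and DNA damage or other stress frees it to switch on genes that stop the cell cycle or start apoptosis. Its death-promoting targets include Pmaip1 (Noxa) and Bbc3 (Puma), BH3-only proteins that bind the survival proteins of the Bcl2 family and so release Bax and Bak1 to open the outer mitochondrial membrane. Fetal germ cells are prone to apoptosis by this route, and around these ages male germ cells stop dividing while female germ cells enter meiosis.

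Values are the deposited log2 signals, and a difference is that of 2 group means ± the standard error (SE) of the limma fit over all 31 arrays. The p-values of a comparison were adjusted over all 18194 genes by the Benjamini-Hochberg method, and a gene under 0.05 is said to be called. Signals under 5.39, the 40th percentile of all values, are treated as too low to size a fold, and a fold against such a group is given as a lower bound. In 34 comparisons of groups (238 tests for the 7 genes) Pmaip1 was called in 11 and Cdkn1a in 8, while Mdm2, Bbc3, Ccng1, Bcl2 and Mcl1 were called in 0. Over all 18194 genes the share called in a comparison ran from 0% to 9.65%. The comparisons share arrays, so calls of the same gene are not independent of each other. All 11 calls of Pmaip1 involved wild-type testes, and most included the arrays of the group where it was highest.

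The arrays fell into a wide-spread class of 21 and a narrow-spread class of 10, by the SD of their values over all probe sets (2.33 to 2.39 against 1.77 to 2.18). The signal of Gapdh near the 3′ end exceeded that near the 5′ end by 2.01 ± 0.19 log2 (SD) in the wide and by 0.70 ± 0.19 in the narrow class. All 3 arrays of wild-type ovaries at 16 dpc were narrow, as were 1 array each of wild-type ovaries and Wv/Wv testes at 14 dpc, 2 of Wv/Wv ovaries at 14 dpc, and array 1 of the testes of either genotype and array 2 of the Wv/Wv ovaries at 16 dpc. Of the 18194 genes 13540 were called between the classes, so the differences below were also fitted with the class as a term and with wild-type testis 16 dpc array 1, the most narrow, left out (the class-adjusted fit). Ovary arrays held the pregranulosa gene Fst at 10.06 to 12.01 and testis arrays at 4.43 to 7.47, as the labels give the tissue. Wherever a gene falls with the germ cells of whole gonads, fewer cells of a type and less RNA per cell cannot be told apart.

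Pmaip1 was high in 1 group of the 12, the wild-type testis at 14 dpc. Its signals there were 8.57, 8.44 and 9.52. On the other 28 arrays it lay between 3.31 and 6.00, and 27 of these values were under the low-signal limit. The lowest wild-type testis array at 14 dpc was thus 2.44 log2 above the highest array of any other group.

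**Figure D1:**
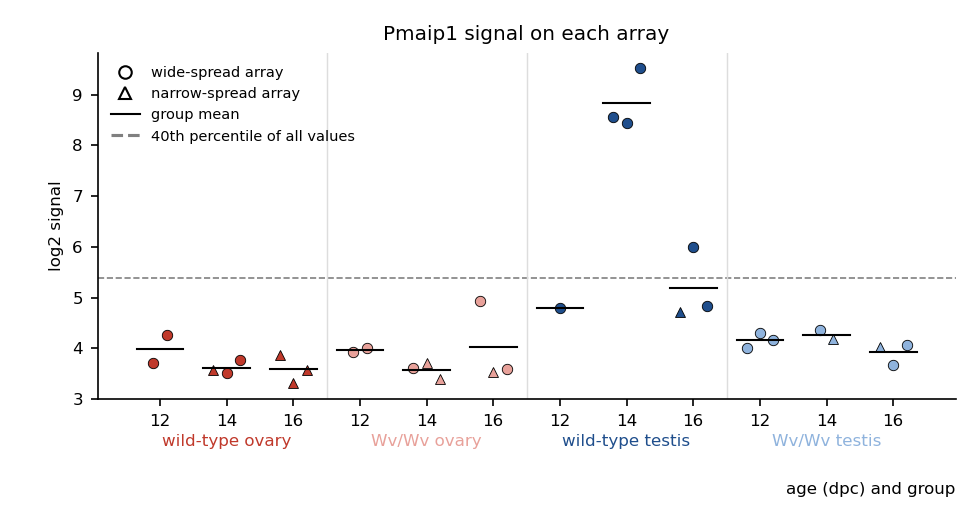
Log2 signal of Pmaip1 on each of the 31 arrays, by sex, genotype and age in dpc. Points are arrays, with circles for wide-spread and triangles for narrow-spread arrays, bars are group means, and the dashed line is the low-signal limit of 5.39. The 3 arrays of wild-type testes at 14 dpc sit between 8.44 and 9.52, above all others.

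Wild-type testes stood at 4.79 at 12 dpc, on a single array, and at 4.72, 6.00 and 4.83 at 16 dpc. Array 2 of the 16 dpc group, at 6.00, was the highest array outside the 14 dpc group and the only such array above the limit. Wv/Wv testes gave 4.00, 4.30 and 4.17 at 12 dpc, 4.36 and 4.18 at 14 dpc, and 4.03, 3.67 and 4.06 at 16 dpc. None of these 8 arrays rose to the lowest wild-type testis array, 4.72.

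Pmaip1 was low in all ovaries. In wild-type ovaries Pmaip1 read 3.72 and 4.26 at 12 dpc, 3.57, 3.51 and 3.77 at 14 dpc, and 3.87, 3.31 and 3.57 at 16 dpc. In Wv/Wv ovaries it read 3.93 and 4.00 at 12 dpc, 3.60, 3.70 and 3.40 at 14 dpc, and 4.93, 3.54 and 3.59 at 16 dpc. Apart from the 4.93 on Wv/Wv ovary array 1 at 16 dpc, every ovary array was below every wild-type testis array.

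Wv/Wv testes at 14 dpc had lost this peak, and Pmaip1 fell by 4.57 ± 0.38 log2 (SE; 8.84 in wild type, 4.27 in Wv/Wv, adjusted p = 3.05e-07, limma). Since both Wv/Wv arrays were under the low-signal limit, Pmaip1 was at least 11.0-fold lower there. It was the only one of the 7 genes called in that comparison, in which 0.594% of all genes were called. The median difference of the 7 genes was -0.49 log2, against 0.01 over all genes. Array 2 of the Wv/Wv group was narrow-spread and all wild-type arrays of the comparison were wide-spread, so genotype and array class are partly mixed. The part of the class in that median was not tested. In the class-adjusted fit the members other than Pmaip1 lay between -0.47 ± 0.25 (Cdkn1a) and 0.23 ± 0.18 (Mcl1), none called.

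Germ cell markers moved with it. Of 15 germ cell markers measured (of 16 listed) 13 were called lower in Wv/Wv testes at 14 dpc and 0 higher, with a median difference of -4.90 log2. The mean level of the list was 8.89 to 9.30 on wild-type and 4.72 to 5.22 on Wv/Wv arrays, where 8 of the 15 were under the low-signal limit on both arrays. The germ cell gene Dazl averaged 11.57 in wild-type and 4.70 in Wv/Wv testes, and Ddx4, a germ cell RNA helicase, 10.60 and 4.63. Meiosis markers fell in 6 of 11 and mesonephros markers in 1 of 5, while 0 of the Sertoli, Leydig, pregranulosa, macrophage and endothelial markers were called in this comparison. The erythroid list averaged 6.89 to 7.82 on wild-type and 6.32 on Wv/Wv arrays, and the mitosis list 10.68 to 10.84 and 9.91 to 10.52. Mast cell markers, at 4.54 to 4.95 and 4.43 to 4.92, overlapped. The part of germ cell number, or of these other cells, in the Pmaip1 difference was not tested.

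In testes at 16 dpc the 3 wild-type and the 3 Wv/Wv arrays did not overlap in Pmaip1. The share of all genes so separated is not given here. All 3 Wv/Wv and 2 of the 3 wild-type arrays were under the low-signal limit. The genotype difference of Pmaip1 at that age was -1.26 ± 0.34 log2 and was not called (adjusted p = 0.154, limma), with 0 of the 7 genes and 0.484% of all genes called. At 12 dpc, against the single wild-type array, it was -0.64 ± 0.48 (adjusted p = 1.00, with 0.033% of genes called). In ovaries the difference was -0.02 ± 0.41, -0.05 ± 0.34 and 0.44 ± 0.34 at 12, 14 and 16 dpc, with 95% intervals from -0.88 to 0.83, -0.75 to 0.65 and -0.26 to 1.13. No member was called between genotypes in ovaries, where 0.0934%, 4.37% and 3.74% of genes were called at the 3 ages.

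The difference between the sexes in that response was tested directly. At 14 dpc the genotype difference in testes minus that in ovaries was -4.52 ± 0.50 log2 (interaction adjusted p = 2.60e-05, limma; 1 of 7 members and 0.275% of genes called). At 16 dpc the interaction was -1.70 ± 0.48 and was not called (adjusted p = 0.12, with 0.813% of genes called), and at 12 dpc it was -0.61 ± 0.63, in a comparison that called 0 of all genes.

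Between wild-type testis and ovary at 14 dpc Pmaip1 differed by 5.23 ± 0.34 log2 (adjusted p = 2.47e-10, limma), at least 11.0-fold higher in the testis. That comparison called 2 of the 7 members and 5.93% of all genes. Germ cell markers did not share this direction. Of the 15, 2 were called lower in the testis and 0 higher, and the list averaged 9.25 to 9.96 on wild-type ovary arrays of that age, where Pmaip1 read at most 3.77. Meiosis markers, which wild-type ovaries express at 14 dpc, were called lower in the testis in 10 of 11.

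At 16 dpc the wild-type testis exceeded the ovary by 1.60 ± 0.34 log2 (adjusted p = 0.00263, limma), with 2 of 7 members and 9.65% of genes called. The lowest testis array, 4.72, lay above the highest ovary array, 3.87. Both groups were low, since all 3 ovary and 2 of 3 testis arrays were under the limit, so no fold is given. At 12 dpc the difference was 0.80 ± 0.50 and was not called, in a comparison that called 0.253% of genes. In Wv/Wv gonads the testis minus ovary difference of Pmaip1 was 0.19 ± 0.38, 0.70 ± 0.38 and -0.10 ± 0.34 at 12, 14 and 16 dpc, none called.

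Comparisons of wild-type testis with the other groups were chosen with earlier results of these data known, so their p-values are not independent support. Against the mean of the other 9 groups, the 3 wild-type testis groups were 2.37 ± 0.20 log2 higher in Pmaip1 (adjusted p = 1.73e-08, limma), with 2 of 7 members and 4.95% of genes called. At 14 dpc alone, against the other 3 groups of that age, the difference was 5.02 ± 0.28 (adjusted p = 3.11e-11, with 1 member and 4.09% of genes called). It was 1.34 ± 0.27 at 16 dpc (adjusted p = 0.00354, with 2 members and 5.27% of genes called), and without wild-type testis 16 dpc array 2, the array at 6.00, it was 0.93 with an adjusted p of 0.0514. At 12 dpc it was 0.76 ± 0.44 and was not called, with 0.148% of genes called.

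Pmaip1 rose and fell within 4 days of wild-type testis development. From 12 to 14 dpc it rose by 4.05 ± 0.48 log2 (adjusted p = 2.64e-05, limma; at least 11.0-fold, from the single 12 dpc array), where 0.786% of genes were called. From 14 to 16 dpc it fell by 3.66 ± 0.34 (adjusted p = 9.23e-07; at least 9.53-fold lower, with 2 of 3 arrays at 16 dpc under the limit), where 0.83% of genes were called. Between 12 and 16 dpc the difference was 0.39 ± 0.48 and was not called.

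Dazl also fell in that step, from 11.57 ± 0.21 (SD, n = 3) to 9.31 ± 0.73 (n = 3), and the change of -2.26 ± 0.60 was not called (adjusted p = 0.0931, limma; -2.10 and 0.0450 in the class-adjusted fit). Ddx4 went from 10.60 to 9.32 and was not called either (adjusted p = 0.349). Of the 15 germ cell markers 3 were called lower at 16 than at 14 dpc. The proliferation genes Mki67 and Top2a stood at 12.28 and 11.66 at 14 dpc and at 11.28 and 10.78 at 16 dpc, neither called, and in the class-adjusted fit their differences were -0.16 and -0.17.

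The change from 14 to 16 dpc differed from that in Wv/Wv testes by 3.31 ± 0.50 log2 (adjusted p = 0.00382, limma), in a comparison that called 0.0824% of genes. It differed from that in wild-type ovaries by -3.63 ± 0.48 (adjusted p = 0.000377), where 0.126% of genes were called. In Wv/Wv testes Pmaip1 moved by 0.11 ± 0.38 from 12 to 14 dpc and by -0.35 ± 0.38 from 14 to 16 dpc, and in wild-type ovaries by -0.37 ± 0.38 and -0.03 ± 0.34, none called. All 11 calls of Pmaip1 were also made in the class-adjusted fit, where the 14 dpc genotype difference in testes was -4.49 ± 0.36.

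**Figure D2:**
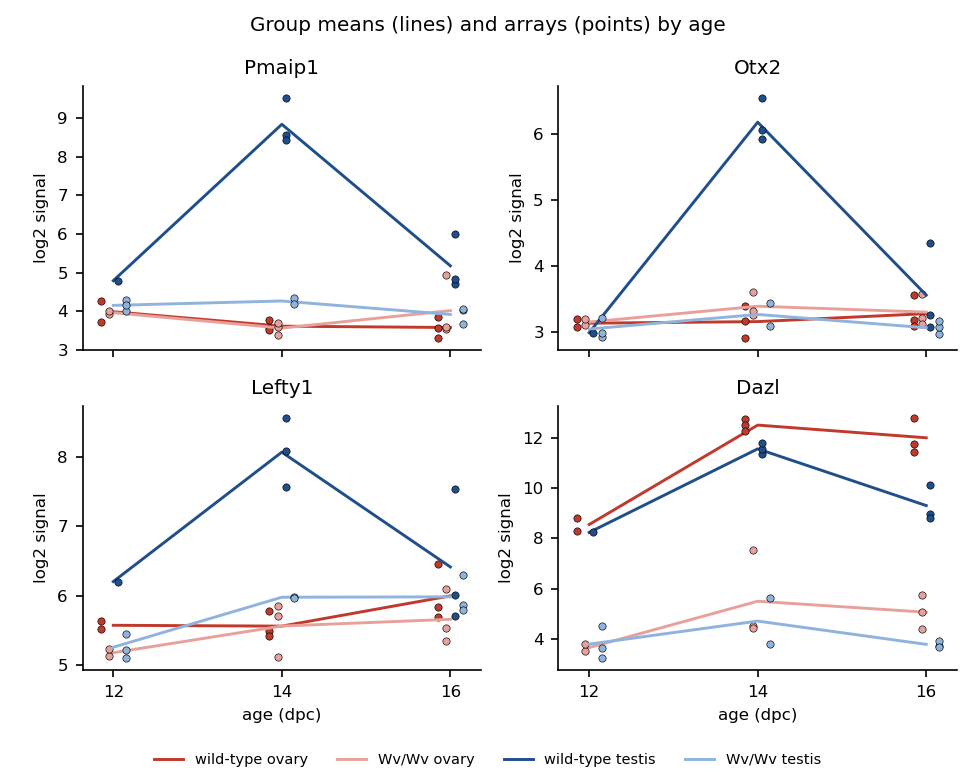
Log2 signal by age in dpc for Pmaip1, for Otx2 and Lefty1, of the 5 genes with the pattern most like it, and for the germ cell gene Dazl. Lines join the group means and points are arrays. Pmaip1 and Otx2 stand above the other groups in wild-type testes at 14 dpc only, while Dazl is also high in wild-type ovaries.

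Over the 12 group means, the 5 genes whose pattern was most like that of Pmaip1 were Otx2 (Pearson r = 0.939), Wnt3 (0.934), Lefty1 (0.922), Zfp819 (0.920) and Radil (0.917). The means share 31 arrays and 1 group dominates them, so r is given as a description. Otx2, a homeobox transcription factor, read 6.07, 5.93 and 6.55 in wild-type testes at 14 dpc and at most 4.35 elsewhere. Lefty1, a secreted inhibitor of Nodal signalling, averaged 8.06 in that group and 6.41 or less in the others, and its lowest array there, 7.56, was just above the highest array elsewhere, 7.53. Wnt3, a secreted signalling protein, averaged 3.86 in that group, under the low-signal limit, and its arrays overlapped those of other groups (lowest 3.54 against 3.56). Among the other members the highest such r was 0.417, for Mcl1, and the lowest -0.324, for Cdkn1a.

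Cdkn1a (p21), the cyclin-dependent kinase inhibitor through which p53 stops the cell cycle, was called between the sexes at 14 and 16 dpc, and in no comparison between genotypes. Both of its probe sets were called in the same direction in all 4 sex comparisons at 14 and 16 dpc. The bases before the more upstream of its RefSeq gene starts are shown, because p21 is a p53 target. Those of Mdm2 and Ccng1 follow, the other members with a match among the windows reported here. Capitals mark each match to the p53 consensus decamer, the unit that p53 response elements carry in tandem. The sequences are the 250 bases before a RefSeq gene start in mouse GRCm38.p6, 5′ to 3′ on the strand of the gene.
Cdkn1a, chr17:29090729-29090978, plus strand: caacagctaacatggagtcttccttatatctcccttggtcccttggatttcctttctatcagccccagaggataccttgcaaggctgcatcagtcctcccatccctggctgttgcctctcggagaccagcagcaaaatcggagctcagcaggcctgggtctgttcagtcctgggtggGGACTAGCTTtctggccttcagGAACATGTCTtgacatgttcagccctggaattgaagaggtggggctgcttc
Mdm2, chr10:117710759-117711008, minus strand: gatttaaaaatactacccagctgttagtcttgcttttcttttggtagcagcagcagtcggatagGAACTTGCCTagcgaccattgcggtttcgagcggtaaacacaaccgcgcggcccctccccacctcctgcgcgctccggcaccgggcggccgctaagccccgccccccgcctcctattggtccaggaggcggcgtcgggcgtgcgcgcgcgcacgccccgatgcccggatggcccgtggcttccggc
Ccng1, chr11:40755287-40755536, minus strand: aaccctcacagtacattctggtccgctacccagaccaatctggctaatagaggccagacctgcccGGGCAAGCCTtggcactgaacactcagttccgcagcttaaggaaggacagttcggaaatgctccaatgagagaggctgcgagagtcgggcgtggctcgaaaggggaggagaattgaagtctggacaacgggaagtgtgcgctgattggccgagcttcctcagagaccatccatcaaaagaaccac

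The reverse complement of a match is itself a match, so both strands are covered, and 2341 of all 32851 windows of this length held it (7.13%). In Cdkn1a the matches start 73 and 51 bases before its upstream RefSeq start, in Mdm2 186 and in Ccng1 185 bases before the gene start. The result for Pmaip1 is not reported here. The window before the downstream RefSeq start of Cdkn1a and the windows of Bbc3, Bcl2 and Mcl1 held none, which says only that these letters are not there. Of the 3 genes printed, Cdkn1a was called in some comparisons and Mdm2 and Ccng1 in none, and binding of p53 was not measured here.

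At 14 dpc Cdkn1a read 8.99, 9.46 and 9.51 in wild-type ovaries and 7.98, 7.85 and 7.98 in wild-type testes. At 16 dpc it read 8.23, 8.82 and 8.34 in wild-type ovaries and 7.30, 7.23 and 7.03 in wild-type testes. Every testis array was below every ovary array of its age. The difference was -1.39 ± 0.27 log2 at 14 dpc (adjusted p = 0.00123, limma; 2.61-fold lower) and -1.27 ± 0.27 at 16 dpc (adjusted p = 0.00238; 2.42-fold lower).

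Wv/Wv gonads showed the same order. At 14 dpc Wv/Wv ovaries read 9.39, 8.86 and 8.48 and Wv/Wv testes 7.17 and 7.33, a difference of -1.66 ± 0.30 (adjusted p = 0.000921, limma; 1 of 7 members and 3.69% of genes called). At 16 dpc ovaries read 9.27, 8.24 and 9.21 and testes 7.03, 6.75 and 7.28, a difference of -1.89 ± 0.27 (adjusted p = 2.74e-05; 1 of 7 members and 6.96% of genes called). The groups did not overlap at either age.

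At 12 dpc the differences were -0.79 ± 0.40 in wild type and -0.68 ± 0.30 in Wv/Wv (9.48 and 9.18 in ovaries, 8.19, 8.94 and 8.83 in testes). Neither was called, in comparisons that called 0.253% and 0.374% of genes. The sex by genotype interaction of Cdkn1a was 0.11 ± 0.50, -0.27 ± 0.40 and -0.61 ± 0.38 at 12, 14 and 16 dpc, with 95% intervals from -0.92 to 1.14, -1.10 to 0.55 and -1.39 to 0.16.

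**Figure D3:**
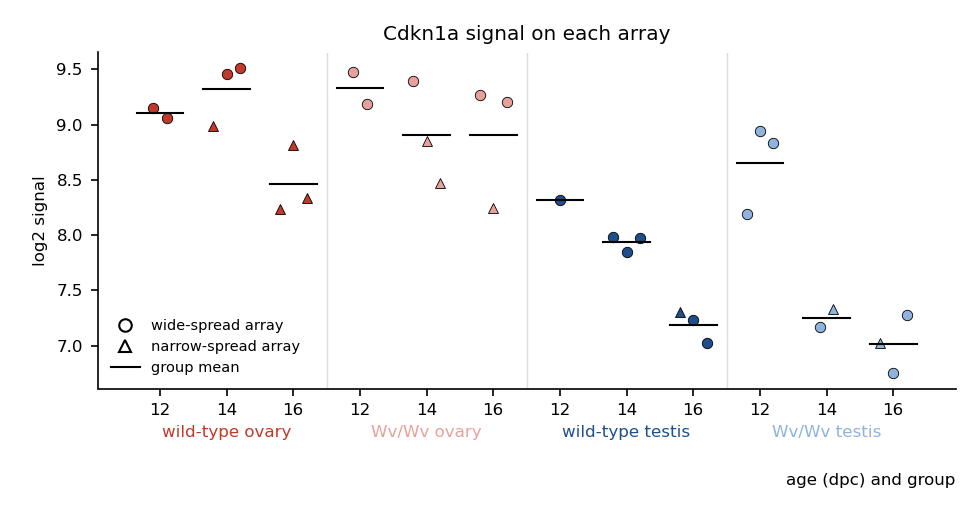
Log2 signal of Cdkn1a on each of the 31 arrays, by sex, genotype and age in dpc. Points are arrays, with circles for wide-spread and triangles for narrow-spread arrays, and bars are group means. Testis arrays at 14 and 16 dpc read 6.75 to 7.98, below all ovary arrays.

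Somatic markers of the gonad moved with the sex of the tissue, as they define it. At 14 dpc in wild type 9 of 10 Sertoli markers were called higher in the testis and 8 of 8 pregranulosa markers lower, and in Wv/Wv gonads again 9 of 10 and 8 of 8. Over the pregranulosa list the mean level was 10.27 to 10.38 on Wv/Wv ovary and 7.30 to 7.36 on Wv/Wv testis arrays at 14 dpc. Germ cell markers were low in Wv/Wv gonads of both sexes. At 14 dpc 7 of the 15 were under the low-signal limit on all ovary arrays and 8 on both testis arrays, and at 16 dpc 8 and 11. Which cells carry the Cdkn1a signal was not tested.

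Between genotypes Cdkn1a was not called in any of the 6 comparisons. In testes the differences were 0.34 ± 0.38, -0.69 ± 0.30 and -0.17 ± 0.27 at 12, 14 and 16 dpc, and in ovaries 0.22 ± 0.33, -0.41 ± 0.27 and 0.44 ± 0.27. At 14 dpc the 2 Wv/Wv testis arrays (7.17 and 7.33) lay below the 3 wild-type ones (7.85 to 7.98), and the 95% interval of the difference, -1.30 to -0.07, left out 0, with an adjusted p of 0.848. In the class-adjusted fit that difference was -0.47 ± 0.25, and its 95% interval, -0.99 to 0.06, included 0. Against the other 9 groups the wild-type testis was -0.74 ± 0.16 log2 different in Cdkn1a (adjusted p = 0.00379, limma), and against the other 3 groups at 16 dpc -0.94 ± 0.22 (adjusted p = 0.00955). At 14 dpc the latter difference was -0.56 ± 0.22 and not called (adjusted p = 0.204), though called in the class-adjusted fit (-0.78 ± 0.20, adjusted p = 0.0103, where 9.67% of genes were called), and lost that call without wild-type testis 14 dpc array 2.

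With age Cdkn1a fell in Wv/Wv testes, from 8.19, 8.94 and 8.83 at 12 dpc to 7.03, 6.75 and 7.28 at 16 dpc. No array of the later age reached the earlier ones. It fell by 1.63 ± 0.27 log2 (adjusted p = 0.000227, limma; 1 of 7 members and 5.39% of genes called). By 14 dpc the difference was -1.40 ± 0.30 (adjusted p = 0.00851, with 2.17% of genes called), and the call was lost without Wv/Wv testis array 1 (adjusted p = 0.0936) or 2 (0.0722) of 14 dpc, or array 2 (0.0629) or 3 (0.0514) of 12 dpc. Leydig cell markers rose over the same span, 4 of 5 called higher at 16 than at 12 dpc, and 3 of 5 markers of the mesonephros, the embryonic kidney beside the gonad, were called lower, and the part of these cells in the Cdkn1a values was not tested.

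In wild-type testes the single 12 dpc array read 8.32, and the difference at 16 dpc, -1.13 ± 0.38, was not called (adjusted p = 0.186; 0 of 7 members and 1.65% of genes called). It was called in the class-adjusted fit (-1.19 ± 0.32, adjusted p = 0.0261, where 6.74% were called), and not there once either remaining 16 dpc array was left out. Ovaries of either genotype showed no called change of Cdkn1a with age, with differences from 12 to 16 dpc of -0.65 ± 0.30 in wild type and -0.42 ± 0.30 in Wv/Wv, where 7.68% and 3.69% of genes were called. All 8 calls of Cdkn1a were also made in the class-adjusted fit.

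Mdm2, the ubiquitin ligase that keeps p53 low, stayed between 8.38 and 9.89 on all 31 arrays. Its group means spanned 0.91 log2, from 8.74 in Wv/Wv ovaries to 9.64 in wild-type ovaries, both at 14 dpc. Those 2 groups read 9.38, 8.45 and 8.38 against 9.30, 9.89 and 9.74, and overlapped. The difference of -0.91 ± 0.27 was not called (adjusted p = 0.0607, limma). Arrays 2 and 3 of the Wv/Wv group, its low values, were narrow-spread arrays, on which Mdm2 read -0.57 ± 0.09 lower than on wide ones over all groups. In the class-adjusted fit the genotype difference was called at -0.71 ± 0.13 (adjusted p = 0.000436, limma), where 20.6% of genes were called. Over wide-spread arrays alone it was -0.44, with 1 Wv/Wv array.

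Ccng1 (cyclin G1), a p53 target that recruits a phosphatase to Mdm2, ranged from 7.90 to 10.12, and its group means spanned 1.00 log2. In testes at 14 dpc it read 9.78, 10.12 and 10.04 in wild type and 9.99 and 9.05 in Wv/Wv, which overlap. Its lowest value, 7.90, came from wild-type testis 16 dpc array 1, while the other arrays of that group read 9.93 and 9.99. No comparison was called in either fit. In the class-adjusted fit the genotype differences in testes lay between -0.06 ± 0.14 at 14 dpc and 0.19 ± 0.14 at 16 dpc.

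Bbc3 (Puma), like Pmaip1 a BH3-only killer and a p53 target, did not follow it. In testes at 14 dpc Bbc3 read 6.49, 6.48 and 6.54 in wild type and 6.45 and 7.22 in Wv/Wv. The 7.22 was on a narrow-spread array, and narrow arrays read 0.70 ± 0.12 log2 above wide ones over all groups. The highest Bbc3 value, 8.51, was again on wild-type testis 16 dpc array 1, against 6.54 and 6.43 on the other arrays of the group. In the class-adjusted fit the 14 dpc difference between genotypes in testes was -0.02 ± 0.20, with a 95% interval from -0.44 to 0.41, and no comparison was called in either fit.

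**Figure D4:**
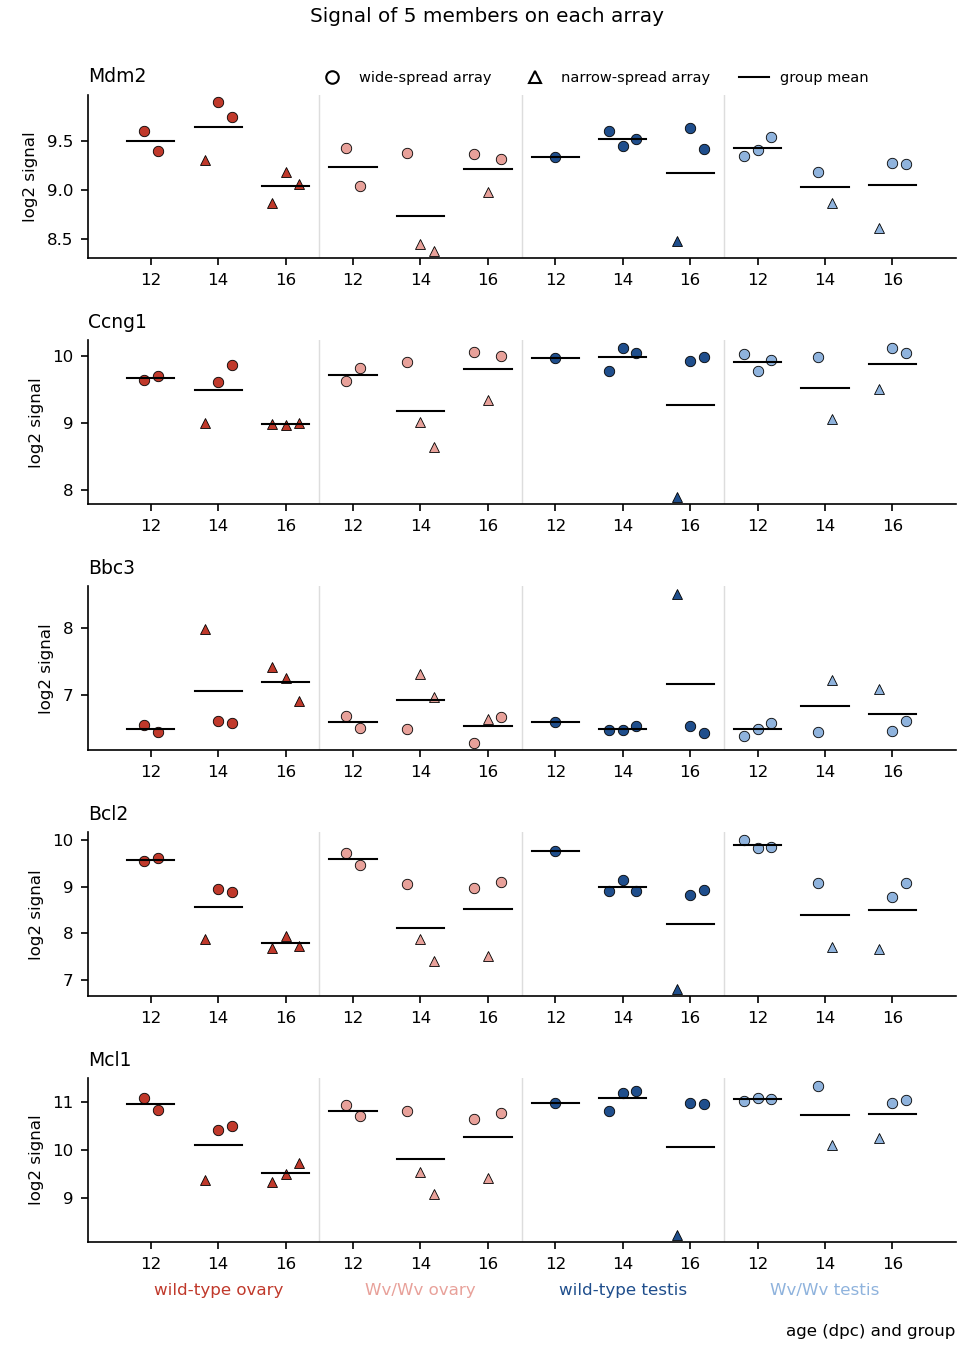
Log2 signal of Mdm2, Ccng1, Bbc3, Bcl2 and Mcl1 on each of the 31 arrays, by sex, genotype and age in dpc, each gene on its own axis. Circles are wide-spread and triangles narrow-spread arrays, and bars are group means. Narrow arrays read low in Bcl2 and Mcl1 and high in Bbc3, with wild-type testis 16 dpc array 1 farthest out.

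Among the survival genes, Bcl2, which holds Bax and Bak1 in check, was highest at 12 dpc in all 4 kinds of gonad. It read 9.55 and 9.61 in wild-type and 9.72 and 9.47 in Wv/Wv ovaries of that age, 9.77 on the wild-type testis array, and 10.01, 9.83 and 9.86 in Wv/Wv testes. At 14 and 16 dpc every array was lower, 9.14 at most. Part of that spread follows the array class, since narrow arrays, none of which is from 12 dpc, read 1.32 ± 0.09 log2 below wide ones. On wide arrays alone the 14 dpc means were 8.91 to 9.08 and the 16 dpc means 8.88 to 9.03, without wild-type ovaries at 16 dpc, which have no wide array.

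None of these age differences was called without the class term, the closest being -1.80 ± 0.58 from 12 to 16 dpc in wild-type ovaries (adjusted p = 0.0567, limma). Members called between 12 and 14 dpc numbered 0 in ovaries of either genotype, where 2.59% (wild type) and 1.54% (Wv/Wv) of genes were called. Between 14 and 16 dpc they again numbered 0 in wild-type ovaries, Wv/Wv ovaries and Wv/Wv testes (0.357%, 0.0989% and 0.11% of genes called), and the change over that step differed between genotypes in ovaries for 0 of the 18194 genes. In the class-adjusted fit 7 of the 8 comparisons with 12 dpc were called lower. The largest was -0.95 ± 0.13 in Wv/Wv testes from 12 to 16 dpc (adjusted p = 1.44e-05, where 17.3% of genes were called), which was -0.97 over wide arrays alone (adjusted p = 4.57e-05). The same step in wild-type testes gave -0.89 ± 0.20 (adjusted p = 0.00505, where 6.74% were called), and in Wv/Wv ovaries -0.63 ± 0.15 (adjusted p = 0.00444, where 17.0% were called). From 12 to 14 dpc the class-adjusted differences were -0.85 ± 0.15 in Wv/Wv testes, -0.78 ± 0.18 in wild-type testes, -0.57 ± 0.15 in wild-type ovaries and -0.60 ± 0.16 in those of Wv/Wv embryos, where 7.76%, 3.49%, 13.2% and 6.68% of genes were called.

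The 2 calls in Wv/Wv testes were kept whichever array was left out, and the 2 in wild-type testes whichever 14 or 16 dpc array was left out, while their single 12 dpc array cannot be left out. In Wv/Wv ovaries the call at 16 dpc was lost without array 1 of 12 dpc, and that at 14 dpc without array 1 of 12 dpc or array 3 of 14 dpc. In wild-type ovaries the call at 14 dpc was kept in 1 of 5 such fits, that without the narrow array 1 of 14 dpc. Markers of other cells moved over the same ages. Endothelial markers averaged 8.00 to 8.06 in wild-type ovaries and 8.30 in wild-type testes at 12 dpc, and 7.26 to 7.47 and 7.28 to 7.56 at 14 dpc. Mesonephros markers averaged 6.44 to 7.98 in wild-type and 7.68 to 8.24 in Wv/Wv ovaries at 12 dpc, and 5.97 to 6.40 and 7.00 to 7.12 at 14 dpc, besides their fall in Wv/Wv testes. The part of these cells and of the Leydig cells in the Bcl2 values was not tested.

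Of the 5 Bcl2 probe sets, a dimmer one was called in Wv/Wv testes from 12 to 16 dpc without the class term (-1.30 ± 0.36, adjusted p = 0.0365 over all probe sets). Between genotypes Bcl2 was not called in either fit. Its differences in the main fit lay between -0.60 ± 0.58 in testes at 14 dpc and 0.75 ± 0.52 in ovaries at 16 dpc, and the class-adjusted values of these were 0.06 ± 0.15 and -0.14 ± 0.14.

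Mcl1, the survival protein that Pmaip1 binds, read 10.81, 11.19 and 11.24 in wild-type testes at 14 dpc and 11.35 and 10.11 in Wv/Wv testes. The groups overlap, and the genotype difference was -0.35 ± 0.61 (adjusted p = 0.877, limma; 95% interval from -1.61 to 0.91). Wild-type ovaries of that age read 9.39, 10.42 and 10.51, all below the wild-type testes. That sex difference, 0.97 ± 0.55, was not called (adjusted p = 0.496). In the class-adjusted fit it was 0.59 ± 0.16 (adjusted p = 0.00907, where 18.0% of genes were called), and 0.71 ± 0.17 in Wv/Wv gonads at 14 dpc and 0.48 ± 0.15 at 16 dpc (adjusted p = 0.00503 and 0.0258, where 14.7% and 20.5% were called). The first was lost without array 2 of the ovaries or 3 of the testes, the next without either testis array, and the last without array 1 or 2 of the ovaries or 1 of the testes. Over wide arrays alone the Wv/Wv difference at 16 dpc was 0.29 and not called. At 14 dpc it was 0.52, from 1 wide testis array and 1 wide ovary array. Narrow arrays read 1.17 ± 0.10 log2 below wide ones in Mcl1.

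**Figure D5:**
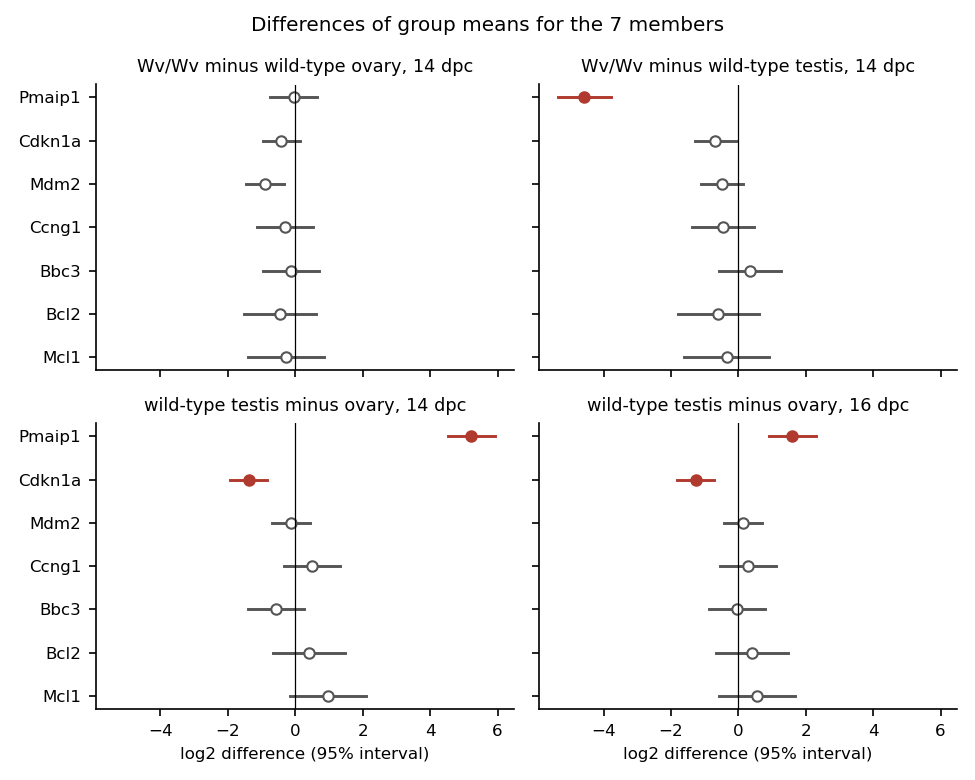
Differences of group means in log2 for the 7 measured genes in 4 comparisons, with 95% intervals. Filled red points were called at an adjusted p below 0.05 and open points were not. Pmaip1 is called in 3 of the panels and Cdkn1a in the panels of testis against ovary, and the intervals of the other genes all include 0 but for Mdm2 between genotypes in ovaries.

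Other genes of the pathway were drawn from a list of 100, 92 of them measured. In testes at 14 dpc, where Pmaip1 fell, 0 of the 92 were called between genotypes in either direction, with a median difference of -0.14 log2 against 0.01 over all genes. In particular 0 of 43 other p53 targets, 0 of 7 other BH3-only genes and 0 of 14 caspase and apoptosome genes were called there or at 16 dpc. Of all genes 0.594% were called in testes at 14 dpc and 0.484% at 16 dpc, so a count of 0 in lists this short is near the share over all genes. In ovaries 11 of the 92 were called lower in Wv/Wv at 14 dpc and 7 at 16 dpc, with 0 higher, where 4.37% and 3.74% of all genes were called. The largest at 14 dpc were those of the damage kinase Atr (-2.17 ± 0.46), the mitochondrial nuclease gene Endog (-1.74), the checkpoint kinase Chek1 (-1.48) and Ckap2 (-1.14), a spindle protein. At 16 dpc they were Atr (-2.15), Rps27l (-1.18), Birc5 (survivin, -1.15) and Cdkn2a (-0.96). Each of these was also called in the class-adjusted fit, where Atr differed by -1.86 at 14 dpc and -2.77 at 16 dpc.

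Germ cell markers fell in the same ovaries, 14 of 15 called at 14 dpc and 10 of 15 at 16 dpc, with 9 and 10 of 11 meiosis markers. Of 9 mitosis markers 3 were called lower at 14 dpc and 1 at 16 dpc, and of 5 erythroid markers 3 and 2. At 14 dpc the mitosis list averaged 9.95 to 10.46 on wild-type and 8.59 to 9.61 on Wv/Wv ovary arrays, and the erythroid list 6.85 to 8.60 and 5.47 to 5.83. The part of these cells, and of dividing cells, in the pathway genes was not tested.

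Between wild-type testis and ovary 6 of the 92 were called higher and 3 lower at 14 dpc, and 4 and 5 at 16 dpc, where 5.93% and 9.65% of all genes were called. The largest was Ephx1, an epoxide hydrolase listed as a p53 target, at 4.31 log2 at 14 dpc and 4.09 at 16 dpc. It was also higher in Wv/Wv testes than in Wv/Wv ovaries, by 4.25 and 4.05 at the same ages. At 14 dpc Bok, a Bax-like gene, was 1.00 higher in wild-type testes, Ddb2, a DNA repair gene, differed by -0.97, and Sfn was called higher, with both its means under the low-signal limit. At 16 dpc Atr differed by -2.29, Ddb2 by -1.53 and Bid, a BH3-only gene, by -1.39. In Wv/Wv gonads 3 were called higher in the testis and 0 lower at 14 dpc, and 8 and 2 at 16 dpc (3.69% and 6.96% of all genes called), led at 16 dpc after Ephx1 by the polo-like kinase gene Plk2 (-1.55), Birc5 (1.44) and Bok (1.23).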

How the data were processed

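The data are 31 whole-gonad samples hybridised to 1-colour Affymetrix arrays. The authors deposited log2 signals per probe set, made by RMA per the submitters' processing notes, and which arrays were normalised together is not given in the sources used here. The number of arrays, 1 to 3 a group, limits the precision. Of 45101 probe sets, 34958 were annotated with 1 gene symbol, 932 with several and the rest with none. The probe set with the highest mean stood for each of 18194 genes. R 4.3.3 with limma 3.58.1 fitted the 12 group means over all 31 arrays (lmFit and eBayes, 19 residual degrees of freedom), with Benjamini-Hochberg adjustment over all genes at 0.05, after checks on simulated data. Python 3.11.15 searched the promoters and drew the plots.

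The 9 members, the lists of pathway genes and cell markers and the comparisons were chosen with earlier results of these data known. Named genes are the members, up to 4 called pathway genes of largest change in a comparison, the 5 genes most like Pmaip1 and markers of cell types and sex. Alternatives covered the array class, an outlying array, array weights, low signals, the features tested, the probe set, the size of change, normalisation, the replicate block, the variance prior, the arrays fitted together and the omission of each single array. No 2 arrays of a group were identical: over 27 pairs the SD of their difference was at least 0.179 log2. In wild-type and Wv/Wv testes at 16 dpc the deviations of same-numbered arrays from their group means correlated at 0.72, 0.602 and 0.657. In both groups array 1 was narrow-spread and arrays 2 and 3 wide-spread, so a pairing cannot be told apart from the array class. Over all same-numbered pairs checked the correlation ran from -0.818 to 0.847, and the labels name no pairing.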

Additional observations from a re-analysis of the deposited data

Results flagged for a closer look

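The effect of the genotype on Pmaip1 differed between the sexes at 14 dpc, by a tested interaction of -4.52 log2 (testes minus ovaries). The change of Pmaip1 from 14 to 16 dpc also differed between groups in 2 tested contrasts, by 3.31 log2 for Wv/Wv minus wild-type testes and by -3.63 log2 for wild-type testes minus wild-type ovaries. All 3 share the wild-type testis arrays at 14 dpc. Single arrays within a group were not flagged here, since every group holds 3 arrays or fewer. Arrays that lay apart from their group are named with the genes above.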

How the results depend on the processing

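No called result changed direction under any alternative, and Pmaip1 between genotypes in testes at 14 dpc stayed called at -4.75 to -4.33 log2 wherever it was tested, and at -4.78 to -4.23 without single arrays. A filter on the highest group mean in place of the overall mean, chosen after seeing the data, left it at -4.57. Member calls between genotypes, 1 of 42, were 2 in the class-adjusted fit, without wild-type testis 16 dpc array 1, after cyclic loess, after quantile normalisation and after centring on housekeeping genes, 3 with the class as a term on all arrays, 10 with array weights (whose estimate did not converge) and 0 where genes of low mean signal, Pmaip1 among them, were left out. Calls between the sexes, 6 of 42, were 9 class-adjusted, 14 with weights, 1 for changes tested against a 2-fold minimum and 3 with only the arrays compared in the fit. Interaction calls, 1 of 21, were 2 with the class on all arrays, 7 with weights and 0 without low mean signals. Calls of wild-type testis against the rest, 5 of 28, were 6 class-adjusted, 9 with the class on all arrays, 17 with weights, 2 without low mean signals and with the 2-fold minimum, and 3 after housekeeping centring and with only the arrays compared. Age calls, 6 of 105, were 14 class-adjusted, 10 with the class on all arrays, 43 with weights and 3 without low mean signals and with the 2-fold minimum. Without 1 array at a time these 5 counts ran from 1 to 2, 6 to 8, 1 to 1, 4 to 5 and 5 to 9. The share of all genes called also rose in the class-adjusted fit, from 5.39% to 17.3% for Wv/Wv testes from 12 to 16 dpc. For wild-type ovaries from 12 to 14 dpc it rose from 2.59% to 13.2%. The changes in these counts are therefore not particular to the members, and shares under the other settings are not given here.

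The Pmaip1 genotype difference in testes at 16 dpc became called at -1.26 (class on all arrays), -1.74 (weights) and -1.91 (housekeeping), and ran from -1.49 to -0.85 without single arrays. The wild-type sex difference at 16 dpc, 1.60, was not called with the 2-fold minimum (1.60) or with only the arrays compared (1.60). The interaction at 14 dpc was not called with weights (-4.39), and that at 16 dpc was called with the class on all arrays (-1.52) and weights (-2.95). The larger change of Pmaip1 from 14 to 16 dpc in wild-type than in Wv/Wv testes lost its call in 5 settings, at 2.43 to 3.31. With only the arrays compared, the fall of Pmaip1 from 14 to 16 dpc in wild-type testes (-3.66), its difference from that in ovaries (-3.63) and wild-type testis against the other 3 groups at 16 dpc (1.34) lost their calls, the last also with the 2-fold minimum. All 8 calls of Cdkn1a were lost with the 2-fold minimum. After housekeeping centring 5 were lost: wild-type sexes at 16 dpc (-1.05), wild-type testis against the other 9 groups (-0.62) and the other 3 at 16 dpc (-0.44), and Wv/Wv testes from 12 to 14 dpc (-0.98) and to 16 dpc (-1.40). With only the arrays compared 4 were lost: wild-type sexes at 16 dpc, Wv/Wv sexes at 14 dpc, wild-type testis against the other 3 groups at 16 dpc and Wv/Wv testes from 12 to 14 dpc. With weights the Wv/Wv sexes at 14 dpc were not called (-1.46). Beyond the numbers of arrays, genes and samples each setting fits, the cause was not tested. With the replicate block the 5 counts stayed 1, 6, 1, 5 and 6 and no call changed, with Pmaip1 in testes at -4.57 (14 dpc) and -1.26 (16 dpc). Of all 26 same-numbered pairs 10 correlated over 0.1, the 3 of testes at 16 dpc among them. Housekeeping centring moved the median of all genes by -0.89 to 0.86, so differences under it are relative to that shift. Wide arrays alone give no value for wild-type ovaries at 16 dpc, and leaving out the only wild-type testis array of 12 dpc gives none for that group. Low signals limit Pmaip1 outside the 14 dpc wild-type testis, where 27 of 28 values are under 5.39.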
